A study of Mus musculus with 28 samples.

Results

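Fatty acid oxidation and ketone body metabolism were followed through 38 genes: acyl-CoA synthetases, the carnitine shuttle, the mitochondrial and peroxisomal beta-oxidation enzymes, acyl-CoA thioesterases and ketone body enzymes. The genes were taken by name from the gene column of the array files, which matched 55 probes, and all 38 were among the 21081 genes tested. The series holds 28 two-colour Agilent arrays in 13 groups, each carrying the sample's RNA in Cy3 and, in Cy5, a purchased pool of mouse RNA (Stratagene) as the reference. Values are log2 ratios of sample over reference, so a difference of 1 between groups is a doubling, and a ratio says nothing of how a gene compares with another gene. All animals were C57BL/6 mice, and the labels do not give age or sex.

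The tissue groups were untreated adult liver (2 arrays), a separate group named whole liver (2), muscle (3), brown adipose tissue (3), white adipose tissue (3) and pancreas (2). Injured livers were taken 3 and 13 days after carbon tetrachloride (CCl4), a liver toxin that hepatocytes activate themselves (2 arrays each). Cell groups were isolated hepatocytes (2), duct cells sorted for the biliary antigen Mic1-1c3 (2) and cells sorted for Lgr5, a receptor that marks dividing liver cells after damage, 6 days after CCl4 (2). Organoids had been grown from single Lgr5-sorted cells and were kept either in expansion medium, called EM here (2 arrays), or in a differentiation medium, DM (1 array, with no replicate). The study compared these cultures with their parent tissue and with unrelated tissues. The arrays of a group are called biological replicates in the labels, and p-values measure differences only against the spread between arrays.

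Fatty acids are activated to acyl-CoA and enter mitochondria on carnitine, through Cpt1 on the outer and Cpt2 on the inner membrane. There each turn of beta-oxidation runs through a dehydrogenase, a hydratase, a second dehydrogenase and a thiolase, and electrons pass through the flavoproteins Etfa, Etfb and Etfdh. Peroxisomes shorten very long and branched chains and bile acid precursors with their own oxidases and thiolases. The liver turns surplus acetyl-CoA into ketone bodies, which other tissues burn, and brown fat burns fatty acids for heat.

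Promoter sequence was read from RefSeq (GRCm38.p6) for the 33 members with an entry in the promoter table. Those of Acsl1, Acot3 and Acot4 are shown as examples of genes called between groups of liver tissue or hepatocytes. Acot1, Etfdh and Acsl4 were called between such groups too and have entries, but are not shown. A stretch between Hadha and Hadhb is shown because both subunits of the mitochondrial trifunctional protein start beside it in opposite directions. There are 272 bases between their starts, and the part printed is the 228 bases that both promoter entries hold. Capitals mark matches on either strand to GGGCGG (the GC box), CCAAT, or AGGTCANAGGTCA (the direct repeat that PPAR receptors bind) with up to 2 mismatches, and none of these motifs overlaps another in the stretches shown. The 4 stretches lie at chr5:30155003-30155230, chr12:84051994-84052143, chr12:84038229-84038378 and chr8:46470887-46471036, each printed on the plus strand.
Hadha and Hadhb, shared stretch: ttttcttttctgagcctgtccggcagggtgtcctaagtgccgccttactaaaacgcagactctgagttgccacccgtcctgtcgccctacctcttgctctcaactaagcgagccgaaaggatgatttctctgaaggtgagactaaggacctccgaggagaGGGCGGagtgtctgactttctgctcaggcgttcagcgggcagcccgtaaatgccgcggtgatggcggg
Acot3: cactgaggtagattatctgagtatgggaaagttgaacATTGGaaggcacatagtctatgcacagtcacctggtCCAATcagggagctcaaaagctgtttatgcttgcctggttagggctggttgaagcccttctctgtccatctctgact
Acot4: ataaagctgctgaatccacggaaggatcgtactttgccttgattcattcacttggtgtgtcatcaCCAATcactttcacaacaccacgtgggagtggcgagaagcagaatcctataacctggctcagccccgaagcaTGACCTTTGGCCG
Acsl1: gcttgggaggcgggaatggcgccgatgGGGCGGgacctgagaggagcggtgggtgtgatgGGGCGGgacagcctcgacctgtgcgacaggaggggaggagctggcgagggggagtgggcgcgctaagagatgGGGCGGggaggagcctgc
The Acsl1 stretch held 3 copies of GGGCGG and the Acot3 stretch 2 of CCAAT. A further GGGCGG, 20 bases before the Hadhb start, lay outside the shared stretch printed. In the 250 bases before the start, GGGCGG was found for 20 of 33 members (60.6%) against 32.9% of 27025 promoters, and CCAAT for 16 of 33 (48.5%) against 34.5%. No member held an exact AGGTCANAGGTCA, which 0.037% of promoters held, and 3 of 33 (9.09%; Echs1, Etfa and Acot4) held it with up to 2 mismatches, against 3.18%. Member promoters were also richer in G and C, with a median of 58.8% against 52%. A match is a run of letters and was not tested as a binding site.

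On the arrays, between 17.7 and 69.1% of probes were well above background in Cy3, fewest for a pancreas array and most for a brown adipose array. On each array of liver tissue or hepatocytes 33 to 37 of the 38 members were well above background, on each brown adipose array all 38, and in Lgr5-sorted cells 24 and 17. Skeletal muscle markers stood high in adipose tissue: over 6 genes the summed log2 ratio was 8.10 to 8.20 in muscle, 5.92 to 6.88 in brown adipose tissue, and 7.48, 4.03 and 7.48 in white adipose replicates 1, 2 and 3. Adipocyte markers, in turn, summed to 7.09 to 8.15 in muscle against 8.31 to 8.63 in white adipose tissue. At CCl4 day 13 replicate 1 stood apart from replicate 2, with 5.50 against 2.43 for the muscle list. Brown fat's uncoupling protein Ucp1 was at 3.72 in that array and 0.01 in replicate 2. The sex chromosome genes Ddx3y and Xist, picked after their values were seen, also divided the arrays: Ddx3y was well above background in adult liver, hepatocytes, CCl4 day 3, muscle and both adipose tissues, and on no array of EM organoids, duct cells, Lgr5-sorted cells or CCl4 day 13.

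**Figure D1:**
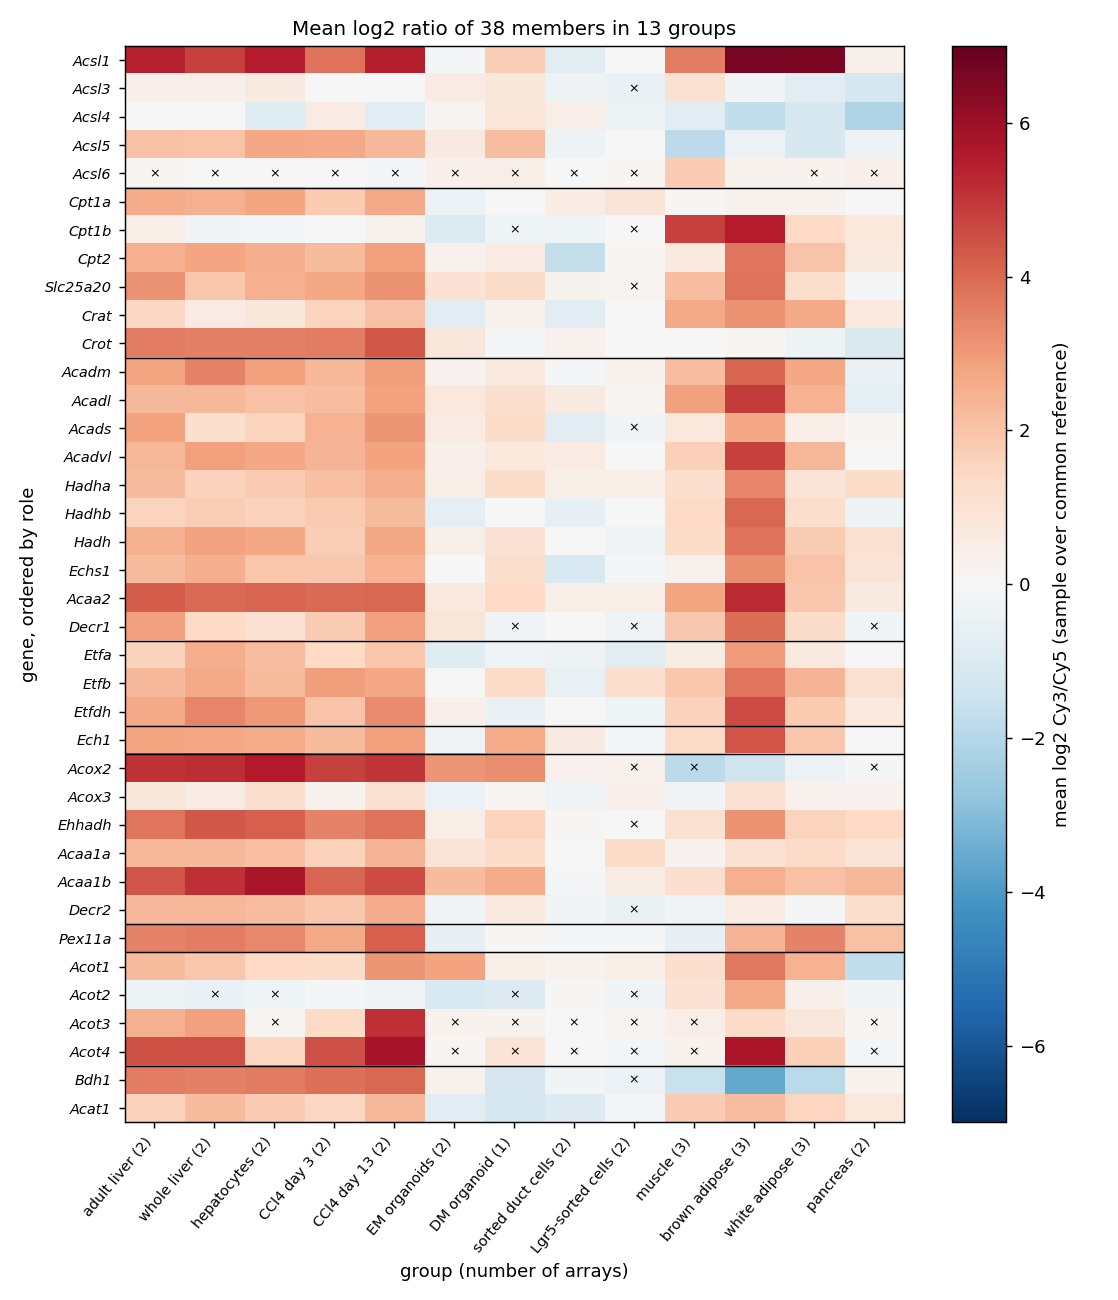
Mean log2 ratio of sample over reference RNA for each of the 38 members (vertical axis, by role) in the 13 groups (horizontal axis), with colour for the ratio and a cross where no array of the group was well above background. All 15 mitochondrial members but Acads had their highest group mean in brown adipose tissue, and all 10 peroxisomal members in a liver tissue group or hepatocytes. For Acot4 and Acox3 brown adipose tissue came close. Acot4 read 5.38, 6.29 and 5.53 there and 5.41 and 6.09 at CCl4 day 13. Acox3 read 1.07, 0.99 and 1.05 there and 0.81 and 1.45 in hepatocytes.

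Liver and muscle differed in members of every role. Of the 38 members, 23 were higher in adult liver and 4 in muscle, where limma called 35.7% of all genes tested in either direction (15.9% higher in liver, 19.8% lower) with adjusted p under 0.05 (Benjamini-Hochberg) and a log2 change of 1 or more. The members' median difference was 1.18, against 0 over all genes tested. All 10 peroxisomal members were higher in liver, with a median of 2.96, and 8 of 15 mitochondrial members were, with a median of 1.02. In bulk tissue, a change in the share of a cell type and a change in RNA per cell cannot be told apart.

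Isoforms of the gatekeeper Cpt1, which loads fatty acids onto carnitine, differed in opposite directions. Cpt1a, the liver form, read 2.82 and 2.42 in adult liver and 0.22, 0.10 and 0.04 in muscle. Cpt1b, the muscle form, read 0.04 and 0.84 in liver and 4.83, 4.77 and 4.80 in muscle. The arrays did not overlap for either gene, and the log2 difference was 2.50 ± 0.23 (SE; adjusted p = 1.35e-08) for Cpt1a and -4.36 ± 0.38 (adjusted p = 6.62e-09) for Cpt1b. Brown adipose tissue was also high in the muscle form: Cpt1b read 5.61, 5.41 and 5.51 there and Cpt1a 0.61, 0.02 and 0.02. The Cpt1a probe was well above background on all 28 arrays, so its ratios near 0 mean a level near the reference and not absence. White adipose tissue had Cpt1a near those values, at 0.30, 0.24 and 0.18, while Cpt1b was 2.35, 0.25 and 1.67. The low white adipose value was that of replicate 2, the array with the lowest muscle markers, and the part of muscle RNA in the other arrays was not tested.

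The other carnitine carriers and transferases differed in both directions. Cpt2 was higher in liver by 1.78 (adjusted p = 4.45e-06), and the carnitine carrier Slc25a20 was not called at 0.96. Crot, the peroxisomal carnitine octanoyltransferase, read 3.59 and 3.61 in liver against -0.03, 0.03 and 0.12 in muscle, a difference of 3.56 ± 0.19 (adjusted p = 4.85e-12). Crat, which makes acetylcarnitine, was lower in liver by a log2 difference of -1.22, and by -0.74, under the threshold, without adult liver replicate 2. Among the synthetases that activate fatty acids, Acsl5 read 2.43 and 1.71 in liver and -1.77, -1.89 and -1.77 in muscle (3.88 ± 0.25, adjusted p = 8.94e-11). Acsl6, a form known from brain, read 1.75, 1.54 and 1.99 in muscle and 0.12 on both liver arrays. It was well above background on 2 muscle arrays and no liver array, so it was at least 2.3-fold lower in liver (adjusted p = 1.21e-06). With Cy3 alone in place of the ratio, its difference was -0.73 and was not called.

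Inside mitochondria the differences were smaller. Acads, the short-chain acyl-CoA dehydrogenase, read 2.63 and 3.03 in liver and 0.82, 0.39 and 0.99 in muscle, a difference of 2.10 ± 0.38 (adjusted p = 9.88e-05). Etfa read 1.52 and 1.70 in liver and 0.50, 0.25 and 0.77 in muscle (adjusted p = 0.000218), and without muscle replicate 2 the difference was 0.98, under the threshold. The thiolase Acaa2 and the hydratase Echs1 were higher by 1.49 and 1.92. Hadhb differed by 0.17 ± 0.15 (adjusted p = 0.358) and the long-chain dehydrogenase Acadl by -0.58, and neither was called. Hadha was called at 1.04 ± 0.36. Further probes of the gene, which name clone sequences and not its RefSeq transcript, gave -0.49 and 0.15 and were not called. The direction for Hadha therefore rests on the probe. Its call was also lost without adult liver replicate 1 or 2 or muscle replicate 2 (adjusted p = 0.065, 0.0831 and 0.0515 by limma).

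Among peroxisomal enzymes the calls of Acot3 and Acox3 were the least firm: Acot3 was not called without adult liver replicate 1 (1.48, adjusted p = 0.0825), nor Acox3 without adult liver replicate 2 or muscle replicate 2 (0.97 in each). Acox2, the oxidase of bile acid precursors and branched chains, read 5.11 and 5.05 in liver, and on no muscle array was it well above background. It was at least 108-fold higher in liver (adjusted p = 1.65e-12). The thioesterase Acot4, which releases free acids from acyl-CoA in peroxisomes, was at least 8.88-fold higher (adjusted p = 1.71e-06), and its other probe gave a log2 difference of 1.65. Mitochondrial Acot2 went the other way, at -0.05 and -0.61 in liver and 1.02, 1.06 and 0.95 in muscle (-1.34 ± 0.19, adjusted p = 4.36e-06). Pex11a, which drives peroxisome division, read 3.16 and 3.74 in liver and 0.15, -1.13 and -0.69 in muscle, and Ech1, a dienoyl-CoA isomerase found in both compartments, was higher in liver by 1.42 ± 0.23.

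The thiolases Acaa1a and Acaa1b are near-identical neighbours, and 1 of 3 probes listed for Acaa1a also names transcripts of Acaa1b. The paralogs cannot be told apart by that probe. The probe used for Acaa1a was another, whose difference between liver and muscle was 2.04, against 4.43 and 4.97 for the other 2 probes. Acaa1b differed by 3.24 ± 0.33 (adjusted p = 5.7e-08). The thioesterases Acot1 to Acot4 are neighbouring paralogs too, and their cross-hybridisation was not tested.

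Ketone body genes differed in both directions. Bdh1, which interconverts acetoacetate and beta-hydroxybutyrate, read 3.41 and 3.72 in liver and -1.81 and -1.26 in muscle, where replicate 3 had no value because its spot was an outlier. The difference was 5.10 ± 0.41 (adjusted p = 4.25e-09), and 3.58 for the gene's other probe. Oxct1, the enzyme with which tissues burn ketone bodies and not a member, was lower in liver by a log2 difference of -4.58 (adjusted p = 1.09e-09), and the acetyl-CoA thiolase Acat1 was not called at -0.17 ± 0.18. The adult liver and muscle arrays share no slide, so slide and tissue cannot be told apart there.

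**Figure D2:**
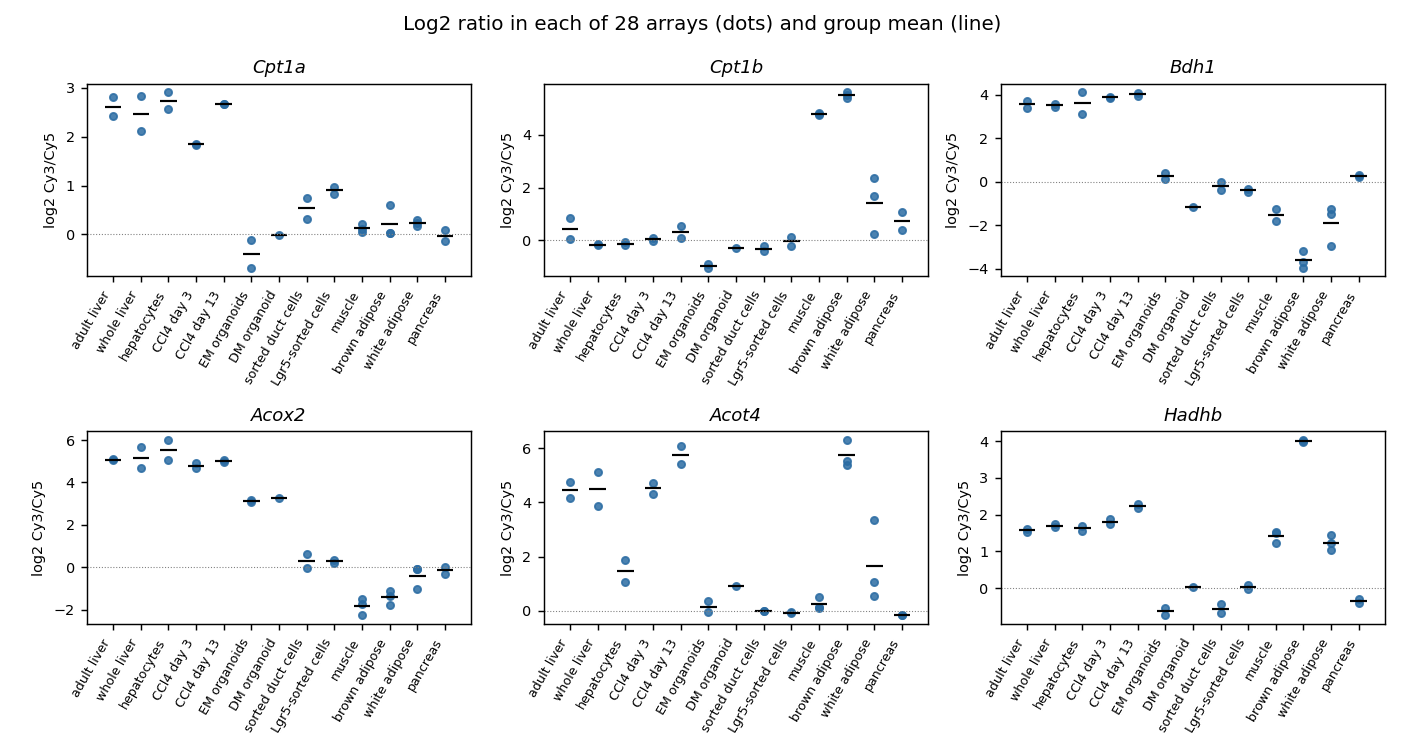
Log2 ratio (vertical axes) of Cpt1a, Cpt1b, Bdh1, Acox2, Acot4 and Hadhb in each of the 28 arrays (dots) of the 13 groups (horizontal axes), with the group mean as a line. Cpt1a and Cpt1b were high in different tissues, and Bdh1 and Acox2 were high in every liver tissue and hepatocyte array.

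Brown adipose tissue had the highest mitochondrial medians of the 13 groups. The median log2 ratio of the 15 mitochondrial members was 3.74 to 3.90 on its 3 arrays, 2.41 and 2.48 in adult liver, 1.54 to 1.62 in muscle and 1.53 to 2.15 in white adipose tissue. Against muscle, 25 members were higher in brown adipose tissue and 3 lower (23.8% of all genes were called, 10.6% lower in muscle and 13.2% higher). Against white adipose tissue, 21 were higher and 3 lower (19% of all genes called, 9.63% higher and 9.33% lower). Against adult liver, 17 were higher in brown adipose tissue and 9 in liver (29.1% called, 15.8% and 13.3%). All 3 comparisons use the same brown adipose arrays, so they are not independent.

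Both subunits of the trifunctional protein were higher in brown than in white adipose tissue. Hadhb read 3.97, 4.03 and 4.02 in brown adipose tissue, 1.44, 1.03 and 1.22 in white, 1.49, 1.22 and 1.53 in muscle, and 1.62 and 1.54 in liver. The brown arrays lay above all others, and the difference was 2.78 ± 0.13 against white adipose tissue (adjusted p = 2.13e-11), 2.59 against muscle and 2.43 against liver. Hadha, encoded beside it, read 3.46, 3.37 and 3.44 in brown and 1.08, 0.65 and 1.04 in white adipose tissue (2.51 ± 0.32, adjusted p = 4.39e-06). Its other probes gave 1.02 and 4.26, in the same direction.

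All 15 mitochondrial members were higher in brown than in white adipose tissue, with a median of 2.45, and all 15 were higher in brown adipose tissue than in muscle. The thiolase Acaa2 read 5.16, 5.08 and 5.35 in brown and 2.00, 1.46 and 2.15 in white adipose tissue (3.33 ± 0.20, adjusted p = 5.19e-10). Etfdh, which hands electrons to the respiratory chain, read 4.60, 4.46 and 4.67 in brown and 1.69, 1.53 and 2.26 in white (2.75 ± 0.23, adjusted p = 3.02e-08). The very-long-chain dehydrogenase Acadvl read 4.72, 4.67 and 4.91 in brown adipose tissue and 1.71, 1.54 and 1.73 in muscle, a difference of -3.11 ± 0.19 for muscle minus brown (adjusted p = 2.71e-10). Cpt2 differed from muscle by nearly as much, at 3.81, 3.53 and 3.85 in brown and 0.79, 0.75 and 0.56 in muscle. Ech1 read 4.39, 4.40 and 4.42 in brown, above 1.79, 1.95 and 2.13 in white and 1.44, 1.13 and 1.42 in muscle. The respiratory chain and citric acid cycle, 18 genes outside the members, moved with them: 15 were higher in brown than in white adipose tissue and none lower.

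White adipose arrays differed in their muscle markers, with replicate 2 the lowest. With white adipose replicate 2 as the only white array, an alternative chosen after seeing the data, all 15 were still higher, with a median of 2.27. Without replicate 2 all 15 were called too, with a median of 2.29, while no peroxisomal member was called lower.

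Of the 10 peroxisomal members, 2 were higher in brown than in white adipose tissue and 2 lower, with a median of 0.54. Acot4 read 5.38, 6.29 and 5.53 in brown fat, against 1.05, 0.55 and 3.35 in white adipose tissue (4.08 ± 0.49, adjusted p = 2.16e-06). The white value of 3.35 was replicate 3, and the gene's other probe gave 2.38. Ehhadh, the bifunctional enzyme of peroxisomes, read 3.26, 3.14 and 3.04 in brown and 1.77, 0.74 and 2.23 in white (1.57 ± 0.35, adjusted p = 0.00153). Acox2 and Pex11a were lower in brown by log2 differences of -1.02 and -1.12. Neither call was firm, as Acox2 lost its call without brown adipose replicate 2 or white adipose replicate 1 or 2, and Pex11a without any single array of the 6. Crot, Acaa1a, Acaa1b, Decr2 and Acox3 were not called, but the other Crot probe was, at 1.01 (adjusted p = 0.00325).

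Against liver, the sets separated by the probes used. Of 15 mitochondrial members 11 were higher in brown adipose tissue and none in liver, while 5 of 10 peroxisomal members were higher in liver and none in brown adipose tissue. The other Acot4 probe, however, was called higher in brown adipose tissue, at -1.14 for liver minus brown (adjusted p = 0.0146 by limma). The Acot4 probe used gave -1.27 and was not called. Acadl read 2.45 and 2.12 in liver and 4.57, 5.12 and 4.95 in brown adipose tissue, a difference of -2.59 ± 0.34 for liver minus brown (adjusted p = 3.29e-06). Acox2 read 5.11 and 5.05 in liver against -1.11, -1.77 and -1.38, and Bdh1 3.41 and 3.72 against -3.18, -3.94 and -3.68. The difference was 7.16 ± 0.38 for Bdh1 (adjusted p = 1.57e-11), with 3.28 for its other probe, and the adjusted p for Acox2 was 5.03e-12. Acot2 was lower in liver by a log2 difference of -2.97 ± 0.19. Further probes of Etfdh and Hadha, counted among the 11, gave -0.78 and -0.94 and were not called. Another Hadha probe was called lower in liver, at -3.64. Acsl1 was lower in liver by -1.24 ± 0.33, but its other 2 probes gave 0.20 and 0.34, and Cy3 alone gave 0.09. The pancreatic acinar list was raised in brown adipose replicate 1 (summed 5.49, against 2.80 and 3.15) and in adult liver replicate 1 (4.02, against 2.53), and its part was not tested.

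**Figure D3:**
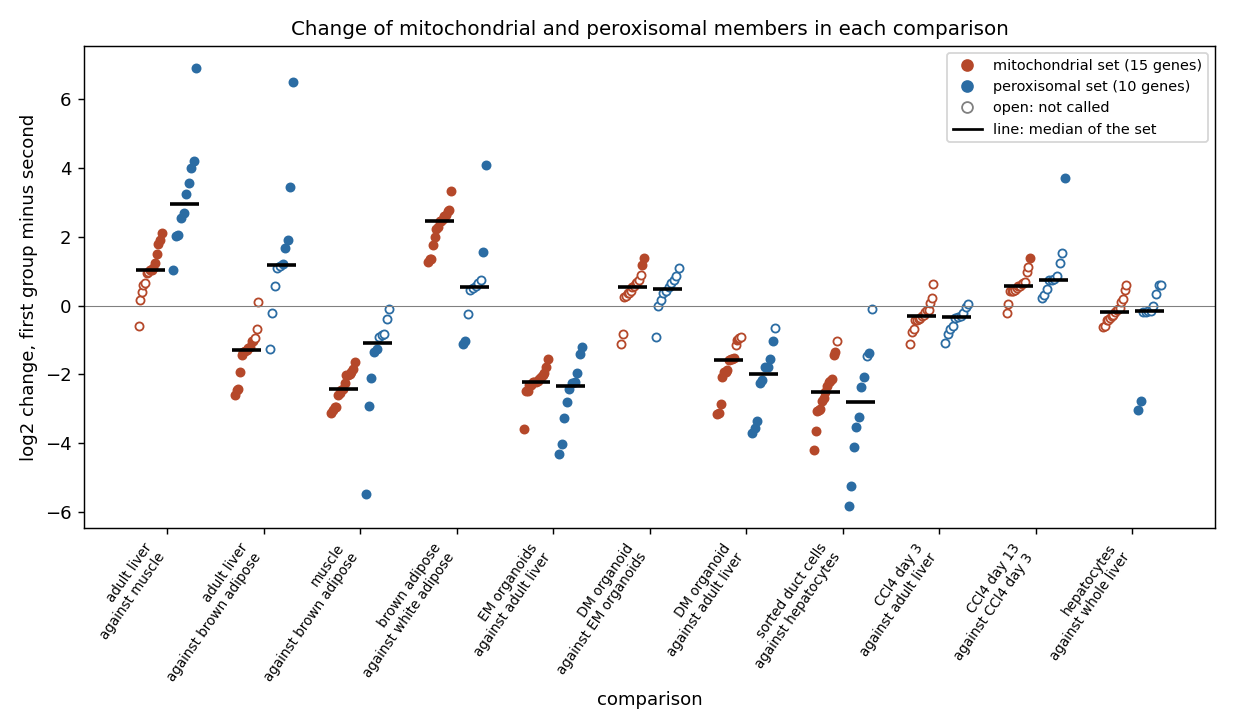
Log2 change (vertical axis, first group minus second) of the 15 mitochondrial and 10 peroxisomal members in 11 comparisons (horizontal axis), with open circles for genes not called and a line at the median. The sets parted in the comparison of liver with brown adipose tissue, with medians of -1.28 and 1.17, and both were below 0 in EM organoids and duct cells.

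Organoids in expansion medium were low in nearly all members. Compared with adult liver, 33 of 38 members were lower and none higher (32% of all genes called, 17.6% lower and 14.4% higher), with a median of -2.21 against -0.09 over all genes. All 15 mitochondrial and all 10 peroxisomal members fell, with medians of -2.21 and -2.34. The 5 that were not called were Acsl3, Acsl4, Acsl6, Acot1 and Acot2. Further probes of Hadha, Etfdh and Cpt1b gave -0.05, -0.98 and -0.36 and were not called, while another Hadha probe was called at -1.17. Among the 18 genes of the citric acid cycle and respiratory chain, 5 were lower and 2 higher, with a median of -0.43.

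Acsl1, the main hepatic acyl-CoA synthetase, fell furthest. It read 5.36 and 5.44 in liver and -0.24 and 0.00 in EM organoids, a difference of -5.52 ± 0.36 (adjusted p = 1.91e-10). Cpt1a went from 2.82 and 2.42 to -0.11 and -0.68 (-3.02 ± 0.25, adjusted p = 5.24e-09). Acaa2 read 0.48 and 0.84 in the organoids (-3.60 ± 0.25) and Etfa -1.22 and -0.51 (-2.47 ± 0.24). For each of these the EM arrays lay below both liver arrays. Ech1 read -0.43 and -0.10 there, a difference of -3.01 ± 0.25.

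Peroxisomal genes fell to different depths. Pex11a had a mean of -0.56 ± 0.63 (SD, n = 2) in EM organoids, -4.01 ± 0.51 from liver (adjusted p = 1.97e-06), and Ehhadh 0.81 and 0.11, well above background on 1 of the arrays (-3.26 ± 0.43). Acot4 was well above background on neither and at least 7.13-fold lower (adjusted p = 5.71e-06), and its other probe gave a log2 difference of -1.63. Acot3 was at least 2.32-fold lower by the same rule, and was not called without adult liver replicate 1 (adjusted p = 0.069). Acox2 kept part of its level, at 3.16 and 3.07 in EM and 3.28 in DM, below liver by -1.97 in EM. Bdh1 fell by 3.30 on the log2 scale, while Oxct1 was higher in EM organoids by 2.98 (adjusted p = 1.05e-06). Acot1 stayed at 2.88 and 2.76 in EM, against 2.50 and 1.88 in liver, and was not called.

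The EM arrays also lacked hepatocyte markers. Over 8 genes the summed log2 ratio was 3.58 and 3.35, with 2 and 0 of the genes well above background, against 10.75 and 10.97 in liver, and the bile duct list was at 5.28 and 5.55 against 1.07 and 1.01. Whether the fall of the members goes beyond that of hepatocyte genes was not tested. Ddx3y was well above background on both liver and no EM array. Ddx3y and Xist together summed to -1.45 and -0.18 in EM, against 2.34 and 2.51 at CCl4 day 13, so Xist was not as high in EM. Sex of the source animals and culture cannot be told apart.

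In differentiation medium a few members were higher. Against EM, 6 were higher and 1 lower in the DM organoid (10.3% of all genes called, 6.26% higher and 4.02% lower), with a median of 0.48. Of these 7 calls, 2 were kept with Agilent's log ratio and 3 with Cy3 alone. Ech1 read 2.60 in DM against -0.43 and -0.10 in EM, a rise of 2.86 ± 0.31 (adjusted p = 1.96e-06) to near the liver's 2.73 and 2.77. Acsl1 rose to 1.74 (1.85 ± 0.45, adjusted p = 0.00787; 1.05 by a further probe, not called) and Acsl5 to 2.16 (1.51 ± 0.34, adjusted p = 0.00426). Etfb rose to 1.34, Echs1 to 1.22 and Crat to 0.25, by 1.37, 1.18 and 1.01, with adjusted p between 0.019 and 0.0315. Acot1 fell from 2.88 and 2.76 to 0.41 (-2.41 ± 0.55, adjusted p = 0.00552).

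None of the 10 peroxisomal members was called in DM against EM by the probe used, and neither was Cpt1a, at -0.01. A further probe of Crot was called lower (-1.54). The probe listed for Acaa1a that also names Acaa1b was called higher (1.1), while the other Acaa1a probes gave 0.38 and 1.02 and were not called. The calls of Etfb and Echs1 were lost without EM replicate 1 and that of Crat without EM replicate 2. On the slide that holds the DM array and EM replicate 2, all 7 kept their direction. The calls used these same arrays, so this is no separate support. With 1 DM array, its spread is taken from the other groups, and Ddx3y was well above background in DM and on no EM array. Regulators of the pathway, 15 genes, gave 6 rises and no fall, including the nuclear receptor Pparg by 3.40 (adjusted p = 5.87e-06), and Oxct1 rose again, by 2.98. The hepatocyte list was at 6.42 in DM, with 4 of 8 genes well above background. The albumin and apolipoprotein genes Alb and Apoa1 were at 3.84 and 4.19, and the urea cycle gene Cps1 was not well above background.

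Against adult liver the DM organoid still had 27 members lower and none higher (28.3% of all genes called, 14.4% lower and 13.9% higher), with a median of -1.68. Bdh1 was at -1.16 (-4.72 ± 0.51, adjusted p = 4.82e-07), Crot at -0.11 (-3.71 ± 0.25) and Etfdh at -0.49 (-3.14 ± 0.34). Decr1, the reductase for unsaturated chains, was not well above background and at least 2.49-fold lower (adjusted p = 0.000175). Acot4 was at least 4.19-fold lower by the probe used, while its other probe gave -0.84 and was not called (adjusted p = 0.212). Ech1 and Acsl5 differed from liver by -0.15 and 0.08. The organoid comparisons share the adult liver and EM arrays.

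Within the liver, duct cells were low in most members. In sorted duct cells 29 members were lower than in hepatocytes and 1 higher (23.4% of all genes called, 11.5% lower and 11.9% higher), with a median of -2.27 against 0. The mitochondrial set had 14 of 15 lower (median -2.52) and the peroxisomal set 8 of 10 (median -2.81). These arrays are not those of the organoid comparison.

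Acsl1 read -0.79 and -0.81 in duct cells and 5.28 and 5.70 in hepatocytes, a difference of -6.29 ± 0.36 (adjusted p = 4.74e-11). Acaa1b read -0.05 and -0.23 against 5.30 and 6.10 (-5.84 ± 0.36, adjusted p = 1.08e-10). Cpt2 went from 2.70 and 2.39 to -1.42 and -1.88 (-4.20 ± 0.27), and Acaa2 from 3.82 and 4.34 to 0.77 and 0.09 (-3.65 ± 0.25). Duct cell arrays lay below both hepatocyte arrays for each of them. Acox2, which EM organoids kept at 3.16 and 3.07, was at 0.60 and -0.02 in duct cells. The difference between organoids and duct cells was not tested.

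Bdh1 read -0.36 and 0.01 in duct cells and 3.11 and 4.11 in hepatocytes (-3.79 ± 0.41, adjusted p = 5.32e-07). Etfdh, Pex11a and Ech1 were lower by log2 differences of -3.06, -3.52 and -1.97, though the other Etfdh probe gave -0.84 and was not called (adjusted p = 0.161). Further probes of Hadha gave -0.07 and -0.19 and were not called either. The exception was Acsl4, which prefers arachidonic acid, at 0.74 and 0.25 in duct cells and -0.49 and -1.19 in hepatocytes (1.34 ± 0.41, adjusted p = 0.016). It was not called without hepatocytes replicate 2 or duct cells replicate 1, at 0.99 and 1.09. Acot1, Acot2, Acot3 and Acot4 were not called, and the last read 1.86 and 1.06 in hepatocytes.

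Each duct array shared a slide with a hepatocyte array, and on both slides all 30 members kept their direction. The calls came from these same arrays, so this is no separate support. Markers of other cell types stood higher in the duct arrays: the stellate and fibroblast list summed to 6.26 and 8.12, against 0.81 and 1.27 in hepatocytes, and the endothelial list to 4.83 and 6.76, against 2.74 and 2.89. Their part was not tested. Ddx3y was well above background in both hepatocyte and no duct array, so sex cannot be told apart from cell type.

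**Figure D4:**
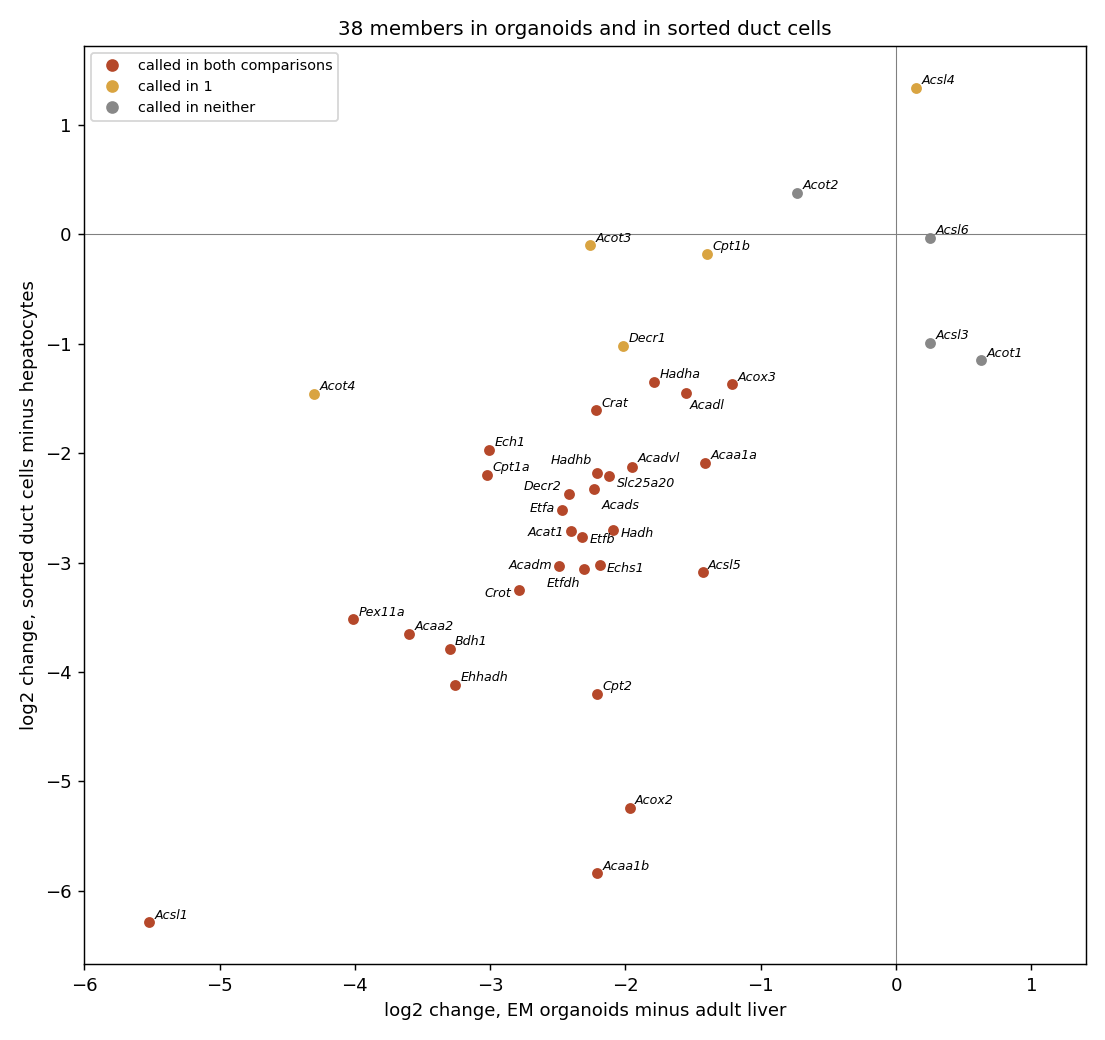
Log2 change of the 38 members in EM organoids minus adult liver (horizontal axis) and in sorted duct cells minus hepatocytes (vertical axis), 2 comparisons with no array in common, coloured by whether the member was called in both, 1 or neither. Acsl1 lies lowest on both axes, and Acsl4 is the member called higher in duct cells.

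After CCl4 few members were called. At day 3, Acsl1 was the single one, and it was lower than in adult liver (8.76% of all genes called, 3.43% lower and 5.32% higher). It read 3.76 and 3.87 against 5.36 and 5.44, a difference of -1.58 ± 0.36 (adjusted p = 0.00523). The day 3 arrays lay below both adult liver arrays, and the gene's other probes gave -1.51 and -1.14. The call was lost without day 3 replicate 1 (-1.53, adjusted p = 0.0511) and against whole liver instead of adult liver (-0.99, adjusted p = 0.074). The other 37 members gave no call by the probe used, and the median of all 38 was -0.30. Further probes did pass the threshold: those of Acaa1a at -1.49 and -1.39, of Etfdh at -1.35, of Decr1 at -1.11 and of Acsl4 at 1.43, with adjusted p from 0.00127 to 0.0432. Those of Acaa1a include the probe that also names Acaa1b. The count of members called ran from 0 with Agilent's log ratio to 8 with Cy3 alone.

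Outside the members more genes were called. Of 26 other peroxisomal genes 10 were lower at day 3, among them catalase (Cat, -2.22) and the phytanic acid oxidase Phyh (-2.15). The omega-oxidation enzymes Cyp4a10, Cyp4a12b and Cyp4a14 were 3 of 4 genes of their list that fell, by -2.63, -2.83 and -2.39. Hepatocyte markers summed to 10.93 and 10.71 against 10.75 and 10.97, and the stellate and fibroblast list to 4.77 and 4.93 against 1.76 and 2.62.

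From day 3 to day 13, 4 members rose and 1 fell (5.69% of all genes called, 2.14% higher and 3.55% lower), with a median of 0.57 against 0.01. The thioesterase Acot3 rose from 1.02 and 1.77 to 4.46 and 5.77, by 3.72 ± 0.60 (adjusted p = 0.000319). Acot1 rose from 0.98 and 1.57 to 3.20 and 2.94 (1.79 ± 0.45, adjusted p = 0.0142). Etfdh rose from 2.01 and 1.92 to 3.35 and 3.31 (1.37 ± 0.28, adjusted p = 0.00301). Acsl1 rose to 5.41 and 5.43 (SE 0.36, adjusted p = 0.00691). Further probes of Etfdh and Acsl1 gave 1.28 and 0.90 and were not called, and further probes of Acaa1a (1.47 and 1.25) and Crot (1.05) were called higher. Those of Acaa1a include the probe that also names Acaa1b. Acsl4 fell from 0.65 and 0.50 to -0.70 and -0.95 (-1.39 ± 0.41, adjusted p = 0.039). The arrays of the 2 days did not overlap for these 5 genes, and all 4 arrays lay on the same slide. As the genes were called from these arrays, the lack of overlap is no separate support.

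The Acot3 values at day 13 were above its 3.03 and 1.93 in untreated adult liver and its 1.86 and 3.93 in whole liver. These differences were not tested. Acot4, printed above beside Acot3, read 4.32 and 4.71 at day 3 and 5.41 and 6.09 at day 13 and was not called. Outside the members, Cyp4a10 rose by 2.98, Cyp4a14 by 2.65 and Pparg by 1.96. The fasting hormone Fgf21 was well above background on both day 13 arrays and on no day 3 array (adjusted p = 0.000236). Cyp4a12a went the other way, from a mean of 3.77 to 1.00 (-2.77 ± 0.73, adjusted p = 0.0187).

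Sex and time cannot be told apart in these 4 arrays, because Ddx3y was well above background on both day 3 arrays and on no day 13 array, and Xist the reverse. With each array left out in turn, 2 to 4 members were called. Over the other settings, Cy3 alone called 14 members and a fit of only these 4 arrays 8. Acot3 and Etfdh were called under every alternative run, the further Etfdh probe apart. Acsl1 lost its call without day 3 replicate 1, day 13 replicate 1 or day 13 replicate 2 (adjusted p from 0.0503 to 0.0676), Acot1 without the same 3 arrays (adjusted p from 0.0637 to 0.183), and Acsl4 without any of the 4. Day 13 replicate 1 also carried muscle and fat markers, and without it 3 members were called.

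**Figure D5:**
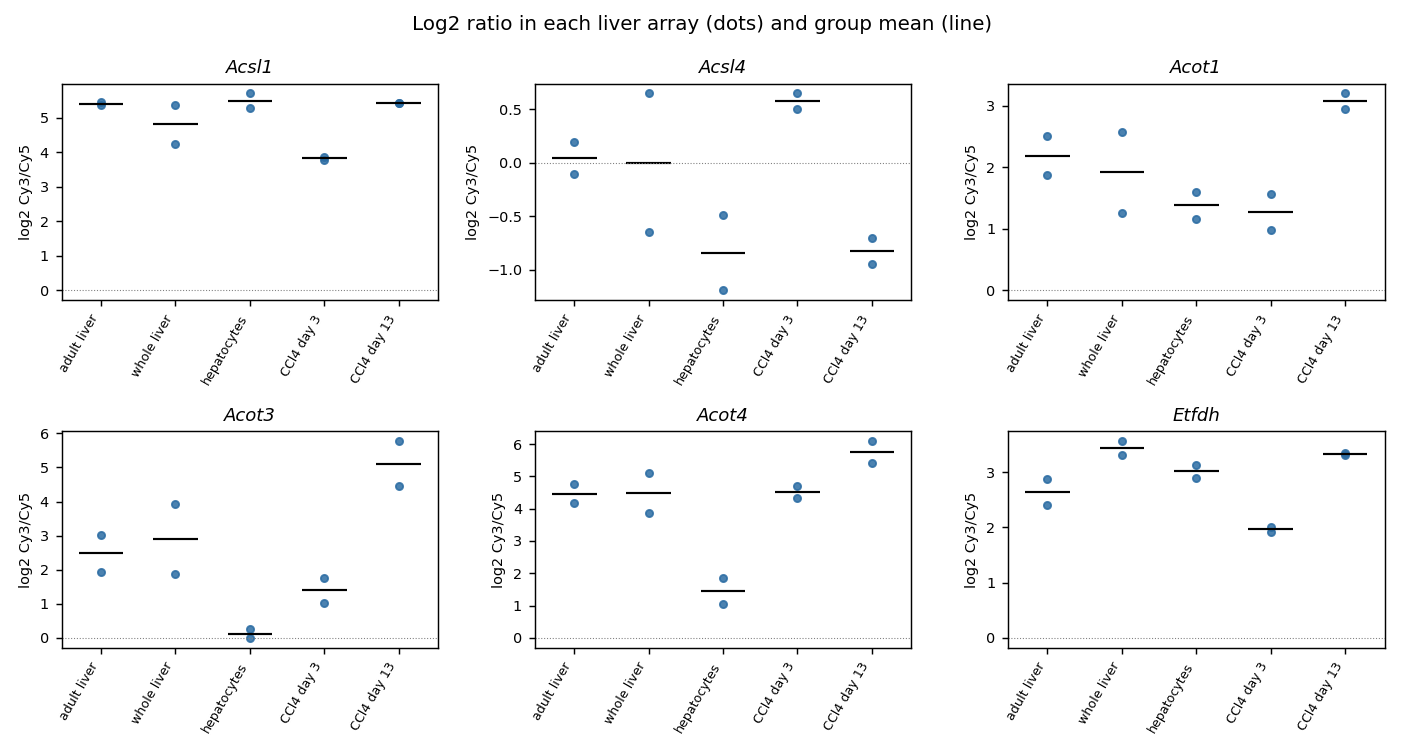
Log2 ratio (vertical axes) of Acsl1, Acsl4, Acot1, Acot3, Acot4 and Etfdh in each array (dots) of 5 liver groups (horizontal axes), with the group mean as a line. Acot3 ranged from 0.00 in hepatocytes to 5.77 at CCl4 day 13, and Acot4 was lower in hepatocytes than in the 4 tissue groups.

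Isolated hepatocytes were compared with whole liver after the levels had been seen. Of the 38 members 2 were lower in hepatocytes and none higher (0.797% of all genes called, 0.375% lower and 0.422% higher). Both were peroxisomal thioesterases. Acot4 read 1.86 and 1.06 in hepatocytes and 3.87 and 5.11 in whole liver (-3.03 ± 0.60, adjusted p = 0.0156). Acot3 read 0.25 and 0.00 against 1.86 and 3.93 in whole liver (-2.77, adjusted p = 0.0284) and was well above background on no hepatocyte array. The other Acot4 probe gave -1.61 and was not called (adjusted p = 0.0658). The arrays did not overlap, and on both shared slides the direction held. The calls came from these same arrays, so this is no separate support. With slide as a fixed block, an alternative added after seeing the data, neither gene was called (adjusted p = 0.211 for Acot4).

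Neither call was firm. Without whole liver replicate 2 or hepatocytes replicate 2 no member was called, and without hepatocytes replicate 1 there was 1. The gap was widest on the slide of the second replicates, where whole liver had no Ddx3y signal above background and its hepatocyte partner did. Macrophage markers, 6 genes, summed to 3.30 and 2.20 in hepatocytes and 4.53 and 5.91 in whole liver. Their part was not tested. Hepatocyte markers summed to 10.37 and 12.35 in hepatocytes and 10.26 and 11.74 in whole liver.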

How the data were processed

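Total RNA was hybridised in Cy3 beside a reference RNA in Cy5. The scanner files as deposited hold, per the file headers, the median intensity of spot and background in both channels, read by Agilent Feature Extraction 10.5.1.1 (the submitters' processing notes give 8.5.1.1), with flags for outliers and signals well above background. The deposited log10 ratio, also in the series matrix (difference 0 on 28 arrays), served as an alternative.

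Log2 ratios were computed from the deposited intensities in R 4.3.3 with limma 3.58.1: normexp with an offset of 50, then loess within arrays with the 1639 control spots of 45018 at weight 0. Outlier spots, 0.688%, were left out. Probes were kept where Cy3 was well above background on 2 or more arrays (31082 of 41174). Of several probes, the brightest stood for its gene. A linear model with 13 group means was fitted to all arrays (15 residual, 4.41 prior degrees of freedom), adjusted over all genes by Benjamini-Hochberg, two-sided. A called gene has an adjusted p under 0.05 and a log2 change of at least 1. Where arrays of a called gene are said not to overlap, the call came from those arrays, so this is no separate support. "At least" folds set the bright group against the higher of the dim probe's signal and the lowest signal among probes well above background. The model was tested on simulated data.

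Members, lists and tests were chosen with earlier results of these data known. Members given in every array are, per comparison, the called ones with the largest rise and fall of each role list, and Cpt1a, Cpt1b, Acaa1a, Acaa1b, Acsl1 and Acsl6; some that the rule takes are given as differences only. Pathway genes were limited to large changes in their lists, and others were picked after their values were seen: Cyp4a12a, Cyp4a14, Ddx3y, Xist and the marker genes. Promoters came from RefSeq GRCm38.p6. Some items are not reported here. Alternatives were other normalizations, filters, probe rules, blocks and samples, and each array left out. Precision is limited by how few arrays a group has. Scan date, slide and tissue mostly coincide.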

Additional observations from a re-analysis of the deposited data

How the results depend on the processing

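The calls in the tissue, EM, duct and DM against liver comparisons stayed within 1.5 times of their counts under each alternative run. Leaving out single arrays gave 24 to 27 members called (27 with all arrays) for adult liver against muscle, 24 to 26 (26) against brown adipose tissue, 28 (28) for muscle against brown adipose tissue, 21 to 23 (24) for brown against white adipose tissue, 32 to 33 (33) for EM organoids and 23 to 24 (27) for DM against adult liver, 5 to 7 (7) for DM against EM, 29 to 30 (30) for duct cells, 0 to 1 (1) at CCl4 day 3, 2 to 4 (5) from day 3 to day 13, and 0 to 2 (2) for hepatocytes against whole liver. The other settings moved the small counts. Agilent's log ratio gave 2 for DM against EM and 0 at day 3. Cy3 alone gave 3 for DM against EM, 8 at day 3, 14 from day 3 to day 13 and 1 for hepatocytes, with a median over all genes between -0.71 and 0.52 across the comparisons. At day 3, subtracted local background gave 2, the probe of highest variance 4, only the arrays of both groups 2, and whole liver in place of adult liver 6. Only the arrays of both groups gave 8 from day 3 to day 13 and 0 for hepatocytes, where slide as a fixed block also gave 0. Acsl1 in adult liver against brown adipose tissue reversed with Cy3 alone (0.09). Of members not described under those comparisons, Acot3 turned to -1.57 in brown against white adipose tissue with Cy3 alone, and Acads to 0.16 (DM) and 1.33 (day 3) against whole liver in place of adult liver. The causes were not tested. A fixed slide block could be fitted only for duct cells and hepatocytes.

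The labels do not say whether arrays with the same replicate number come from the same animal. With the replicate block, 29, 25, 28, 24, 33, 28, 7, 30, 1, 5 and 2 members were called, in the order above, so no count moved by over 1.5 times. Same-numbered duct and hepatocyte arrays, which share a slide, deviated together (r = 0.44 and 0.43). With 2 arrays in a group the deviations mirror each other, so the 2 values are not separate observations. Same-numbered hepatocyte and whole liver arrays, which also share a slide, gave r = 0.39. Those of EM organoids and adult liver, which share no slide, gave r = 0.3, and replicate 1 of both groups was scanned on the same day. Same-numbered arrays of day 13 and day 3 did not deviate together (r = -0.11 for both numbers). Crossing those numbers, chosen after seeing the data, left 5 called.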

Other observations

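Pancreas and Lgr5-sorted cells entered no comparison. In pancreas the median log2 ratio of the 15 mitochondrial members was 0.11 and 0.18, with 11 and 14 of them well above background, and the peroxisomal median was 0.62 and 0.54. The peroxisome division gene Pex11a was at 1.94 and 2.21 and the thiolase Acaa1b at 2.26 and 2.35, above the reference on both arrays. Acot1 had its lowest group mean there of all 13 groups, at -1.55 and -1.87, and was well above background on 1 of the 2 arrays. In Lgr5-sorted cells the mitochondrial median was 0.21 and -0.11, with 11 and 8 of 15 well above background. Cpt1a, at 0.98 and 0.82, and Etfb, at 0.84 and 1.51, were among the members above the reference on both arrays. The macrophage list summed to 10.22 and 8.08 in these cells, the highest of the series.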
